A study of Zea mays with 24 samples.

Results

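Leaves of well-watered maize sprayed with abscisic acid (ABA) were compared between Y7-1, which overexpresses *ZmPMP3g*, and its untransformed parent Y478. The comparison holds 6 of the 24 libraries of the study, 3 plants of Y7-1 and 3 of Y478, both in the treatment called control-exogenous ABA. Expression was measured as FPKM, the reads of a gene scaled by its length and by the size of the library. Genes with 0.5 FPKM or more in 3 or more of all 24 libraries were tested, 23978 of 46430 genes.

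Y7-1 is a transgenic line in the inbred line Ye478 (Y478). It carries *ZmPMP3g* behind 3 joined copies of the CaMV35S promoter, which acts in most plant tissues, and it was made with Agrobacterium and selected on the herbicide Basta. Both groups shared a pot mix moisture of 70% and foliar spraying with 15 mg/L ABA, and the second fully-expanded leaf from the top was taken 9 days later. Control plants received tap water in place of ABA. Y7-1 is a single line set against a parent that did not pass through transformation or selection. The overexpressed gene, the place of its insertion, the making of the line and any other difference between the stocks therefore cannot be told apart here.

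ABA is the plant hormone of water shortage. In the core pathway, receptors of the PYR/PYL family bind ABA and hold back protein phosphatases of type 2C (PP2C), which frees SnRK2 kinases to act on bZIP transcription factors such as ABI5. Genes of dehydrins, of late embryogenesis abundant (LEA) proteins and of other protective proteins lie downstream. PMP3 proteins, named after a yeast protein and called RCI2 or LTI6 in plants, are very small hydrophobic proteins of the plasma membrane whose genes respond to cold, salt and drought.

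The recovered reads per library were 17553573, 17384456 and 15762667 in Y7-1 and 18091190, 18332217 and 18090228 in Y478. Y7-1 replicate 3 stood apart from the other 5 libraries. On the third principal component of all 24 libraries it lay at 124.7, while the 23 other libraries ran from -45.7 to 48.8. In it, 1759 genes lay at least 2 log2 units from the mean of the other Y7-1 plants, against 106 to 754 such genes for each of the other 5 libraries, and its array weight in limma was 0.186. It is kept in the main values. Counts without it follow the counts of the gene lists, and a value without it follows a named gene where leaving it out changed the call or moved the fold change by more than 1.5 times. One library outside the comparison, labelled Y7-1 moderate drought replicate 3, lacked most genes that mark its line (given with the genes read in a single line) and enters here only through the shared estimate of spread.

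The tissue label was checked against marker genes. Enzymes of C4 photosynthesis in mesophyll cells (25 genes tested) summed to 10662 to 12330 FPKM in Y7-1 and 10733 to 14624 in Y478. Bundle sheath enzymes and Rubisco (16 tested) summed to 13206 to 21944 FPKM in Y7-1 and 13242 to 24902 in Y478, so both cell types of a C4 leaf were read at high level in every library. Markers of the epidermis and guard cells (17 tested, 18 of 47 at 0 in all 6 libraries) summed to 88.5 to 124 FPKM in Y7-1 and 138 to 151 in Y478 without overlap. Root markers (18 tested, 12 of 34 at 0) summed to 39.1 to 63.6 FPKM in Y7-1 and 64.9 to 85.9 in Y478, also without overlap. Markers of xylem and secondary wall (9 tested, 13 of 30 at 0) summed to 60.8 to 93.1 FPKM in Y7-1 and 93.8 to 121 in Y478. Those of meristem and flower (38 tested, 58 of 124 at 0) summed to 3537 to 5452 FPKM in Y7-1 and 5485 to 7017 in Y478. In both lists the lines did not overlap. The meristem and flower sum lay far above the epidermis and root sums, and what it reflects was not tested. Phloem markers summed to 518 to 776 FPKM in Y7-1 and 352 to 544 in Y478, those of dividing cells to 1656 to 2542 in Y7-1 and 2096 to 3650 in Y478, and those of senescing leaves to 834 to 1405 in Y7-1 and 539 to 979 in Y478. In whole leaves, fewer cells of a type and less RNA per cell cannot be told apart, and the part of cell makeup in the differences below was not tested.

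The gene closest to the transgene was read first. The *ZmPMP3g* homolog Zm00001d024778 (chromosome 10, 87401369 to 87401545 in the coordinates of the table), annotated as NaCl stress protein1 and hydrophobic protein RCI2B, had 381, 214 and 80.1 FPKM in Y7-1, against 253, 485 and 285 FPKM in Y478. The lines overlapped, with the lowest value in Y7-1 replicate 3 and the highest in Y478 replicate 2. Its log2 fold change was -0.80 ± 0.58 (SE, limma adjusted p = 0.34) and -0.20 without Y7-1 replicate 3, and an exact two-sided permutation test of the 3 against 3 plants gave p = 0.4, where 0.1 is the smallest p the design allows. The table does not say whether reads of the transgene were counted on this gene model, so the value is no measure of the overexpression itself.

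Of 8 members of the PMP3 family in the table, 6 were tested and 1 passed the test (16.7%, beside 14.9% of all tested genes), and none did without Y7-1 replicate 3. Zm00001d006329, an RCI2B-type gene, had 19.2, 13.7 and 14.5 FPKM in Y7-1, against 24.3, 29.8 and 48.4 FPKM in Y478. Every Y7-1 plant lay below every Y478 plant (log2 fold change -1.04 ± 0.24 (SE), limma adjusted p = 0.0046, and -0.99 with adjusted p = 0.016 without Y7-1 replicate 3). This call was also lost without Y478 replicate 3 and without Y7-1 replicate 2, with log2 fold changes no nearer to 0 than -0.76. Array weights (-0.78 log2 units), quantile normalization (-0.93) and the fit of these 6 libraries alone (adjusted p = 0.087) ended it as well. Zm00001d008200, an LTI6B-type gene, had 65.4, 75.4 and 41.4 FPKM in Y7-1, against 114, 138 and 144 FPKM in Y478, with no overlap, yet its fitted change did not pass (log2 fold change -1.15 ± 1.11 (SE), limma adjusted p = 0.49). That SE holds the spread of all 8 groups, and the gene varied widely outside the comparison. It had 195, 22.5 and 93.7 FPKM in Y7-1 control, and 0, 7.7 and 93.3 in the libraries labelled Y7-1 moderate drought. The remaining members were Zm00001d040544 with 26.5, 21.4 and 2.9 FPKM in Y7-1, against 14.6, 15.4 and 29.4 FPKM in Y478, Zm00001d045096 with 12, 9.04 and 10.3 FPKM in Y7-1, against 10.4, 9.56 and 11.1 FPKM in Y478 and Zm00001d028718 with 0.152, 0.472 and 0 FPKM in Y7-1, against 0.165, 0.708 and 0.387 FPKM in Y478, and in each of them the lines overlapped.

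Across all tested genes, 3562 were called as differentially expressed genes (DEGs), by a limma adjusted p under 0.05 together with a log2 fold change of 1 or more in either direction. They were 14.9% of the tested genes. In Y7-1, 1517 were higher (6.33%) and 2045 lower (8.53%). Of the higher genes 980 changed by less than 2 log2 units, 436 by 2 to 4 and 101 by 4 or more, and of the lower genes 1282, 669 and 94 fell into the same classes. Among all tested genes 34.2% had no overlap between the 3 plants of each line, and so did 1416 of the higher and 1942 of the lower DEGs. Without Y7-1 replicate 3 the DEGs were 3113 (13.0%, with 5.60% higher and 7.39% lower), of which 2490 were called with and without it.

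Plants that had received water in place of ABA gave a second, separate look at the same pair of lines, since the comparisons share no plant. Under control 2187 genes were called (9.12% of those tested, 4.23% higher and 4.89% lower). Of these, 2145 (98.1%) had the same sign under control-exogenous ABA, 1534 (70.1%) were called there in the same direction and 1 in the opposite direction. From the other side, 3461 of the 3562 DEGs under ABA (97.2%) had the same sign under control, and 1534 (43.1%) were called there. The difference of the line differences, control-exogenous ABA minus control, was called for 0 of 23978 genes by limma (0.00%), with 1205 genes at an unadjusted p under 0.05, and for 0 by limma-voom on recovered reads, with 1029 at an unadjusted p under 0.05. Its median SE was 0.441 log2 units against 0.312 for the line difference itself. A gene called under ABA and not under control is therefore not shown to differ between the treatments. Without Y7-1 replicate 3, 7 genes were called for this difference, without Y7-1 control replicate 2 4 genes, and without either of Y7-1 replicate 2 or Y7-1 control replicate 1 a single gene.

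**Figure D1:**
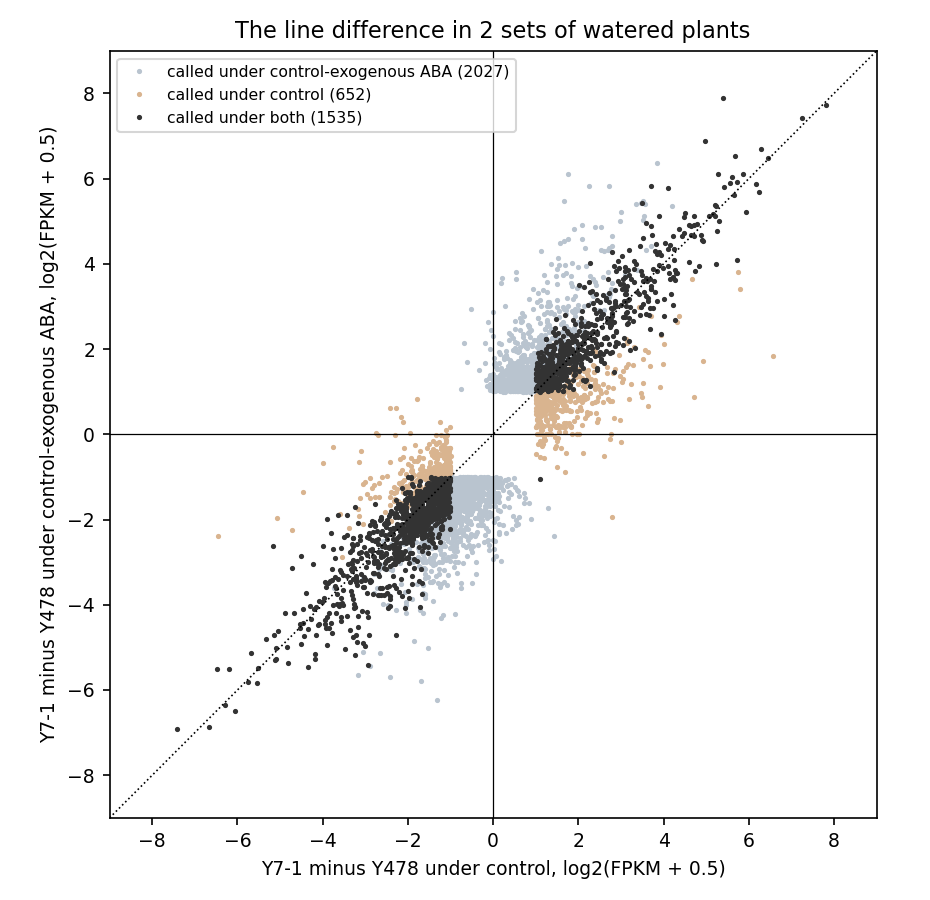
Log2 fold change of Y7-1 over Y478 under control-exogenous ABA (vertical axis) against that under control (horizontal axis), on the log2(FPKM + 0.5) scale, for every gene called in at least 1 of the comparisons. Genes called under both (black), 1534 in the same direction and 1 in the opposite, lie along the dotted line of equal change, and 2027 genes called under control-exogenous ABA (grey) and 652 called under control (tan) keep the sign in most cases.

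Heat shock proteins and factors were the lower group with the most members. These are chaperones that keep other proteins folded, and the transcription factors (HSF) that switch their genes on. Of 253 tested, 58 were lower and 8 higher in Y7-1, which is 22.9% lower and 3.16% higher beside 8.53% and 6.33% of all tested genes, with a median log2 fold change of -0.24 beside 0.02 over all tested genes. Without Y7-1 replicate 3 the counts were 52 lower and 12 higher. Of the 58 lower genes, 57 had no overlap between the lines, as had 1942 of all 2045 lower DEGs. Under control 35 of the 58 were also lower, beside 43.1% of all 3562 DEGs called the same way there. The subgroups below were made after the values were seen.

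Small heat shock proteins, which hold unfolding proteins until other chaperones act, gave 15 lower and 0 higher of 39 tested, at -2.17 to -5.79 log2 units (median of the list -0.77). The lower share was 38.5% beside 8.53% of all tested genes. Without Y7-1 replicate 3, 11 were lower and 2 higher, and 10 of the 15 kept their call. Under control 4 of the 15 were also lower, beside 43.1% of all 3562 DEGs called the same way there. The sum of the 46 genes was 2425, 2769 and 557 FPKM in Y7-1, against 6266, 6242 and 8187 FPKM in Y478. Y7-1 was below Y478 in every plant and lowest in replicate 3. The class I protein Zm00001d039933 had 55.3, 51.9 and 0 FPKM in Y7-1, against 489, 461 and 1091 FPKM in Y478. It was at 0 in Y7-1 replicate 3 and far below Y478 in the other Y7-1 plants (log2 fold change -5.79 ± 1.22 (SE), limma adjusted p = 0.0027, and -3.53 without Y7-1 replicate 3). Another class I gene, Zm00001d028561, had 21, 67.2 and 0.612 FPKM in Y7-1, against 521, 602 and 654 FPKM in Y478. Replicate 3 was again lowest (log2 fold change -5.65 ± 1.21 (SE), limma adjusted p = 0.003, and -3.95 without Y7-1 replicate 3). Zm00001d028557, on the same chromosome and with the same annotation, had 17.1, 30.7 and 42.6 FPKM in Y7-1, against 471, 639 and 544 FPKM in Y478. Here Y7-1 replicate 3 was the highest of its line and the lines still did not overlap (log2 fold change -4.25 ± 0.69 (SE), limma adjusted p = 0.00046). These class I genes share an annotation, and how reads common to such genes were counted is not given in the sources used here. Under control the same genes were at 55.8 to 114 FPKM in Y7-1 and 233 to 252 in Y478 for Zm00001d039933, and at 18.4 to 70.3 in Y7-1 and 248 to 322 in Y478 for Zm00001d028557.

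In the HSP70 family, which folds new and damaged proteins with ATP, 6 of 23 tested genes were lower and 0 higher (26.1% called), with the same counts without Y7-1 replicate 3. Heat shock protein1, Zm00001d012420, had 122, 205 and 2.41 FPKM in Y7-1, against 1069, 1063 and 885 FPKM in Y478. Replicate 3 of Y7-1 was lowest by far and its other plants were also below every Y478 plant (log2 fold change -4.58 ± 1.07 (SE), limma adjusted p = 0.0055, and -2.66 without Y7-1 replicate 3). HSP70 protein 8, Zm00001d048073, had 5.98, 5.27 and 0.224 FPKM in Y7-1, against 25.8, 31.8 and 22.1 FPKM in Y478, with the same order of plants (log2 fold change -3.16 ± 0.54 (SE), limma adjusted p = 0.00066, and -2.13 without Y7-1 replicate 3). Of 10 genes of the HSP90 family, chaperones of kinases and receptors, 3 were lower and 1 was higher, and 2 and 1 without Y7-1 replicate 3. HSP90-2, Zm00001d031332, had 18.1, 21.3 and 3.32 FPKM in Y7-1, against 158, 201 and 114 FPKM in Y478. The lines did not overlap (log2 fold change -3.74 ± 0.63 (SE), limma adjusted p = 0.00057, and -2.94 without Y7-1 replicate 3). Of 10 HSP101 and Clp genes, which pull proteins out of aggregates, 5 were lower and 1 was higher, and 4 and 2 without Y7-1 replicate 3. The called share was 40.0% in the HSP90 family and 60.0% in the HSP101 and Clp list, beside 14.9% of all tested genes. HSP101 itself, Zm00001d038806, had 11.5, 11.9 and 0.385 FPKM in Y7-1, against 174, 169 and 116 FPKM in Y478, with no overlap and with replicate 3 of Y7-1 lowest (log2 fold change -4.89 ± 0.70 (SE), limma adjusted p = 0.0002, and -3.63 without Y7-1 replicate 3).

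Heat stress transcription factors gave 7 lower and 0 higher of 24 tested (29.2% lower beside 8.53% of all tested genes), and again 7 and 0 without Y7-1 replicate 3. HSF-transcription factor 18, Zm00001d016255 (chromosome 5, 153717773 to 153719275), had 5.16, 2.38 and 0.267 FPKM in Y7-1, against 53.4, 67.4 and 117 FPKM in Y478. All Y7-1 plants lay below all Y478 plants (log2 fold change -5.02 ± 0.55 (SE), limma adjusted p = 3.3e-05, and -4.22 without Y7-1 replicate 3). HSF-transcription factor 17, Zm00001d033987, had 19.7, 22.4 and 0.0398 FPKM in Y7-1, against 140.3, 100.1 and 69.3 FPKM in Y478, with replicate 3 of Y7-1 near 0 (log2 fold change -3.98 ± 0.97 (SE), limma adjusted p = 0.007, and -2.21 without Y7-1 replicate 3). The 30 HSF genes summed to 124, 109.8 and 112 FPKM in Y7-1, against 312, 287 and 316 FPKM in Y478, and in this sum Y7-1 replicate 3 did not stand apart. DnaJ proteins, the partners of HSP70, gave 15 lower and 6 higher of 134 tested (15 and 7 without Y7-1 replicate 3), and their share of 15.7% called was close to the 14.9% of all tested genes. Chaperone protein dnaJ 11, Zm00001d014790, went against the group with 77.5, 61 and 482 FPKM in Y7-1, against 0.318, 1.64 and 6.89 FPKM in Y478. It was higher in every Y7-1 plant and highest in replicate 3 (log2 fold change 5.82 ± 1.15 (SE), limma adjusted p = 0.0018, and 4.88 without Y7-1 replicate 3). Its call was lost with limma-voom on recovered reads (adjusted p = 0.072). When only the libraries of both groups were fitted, without the spread of the other libraries, the limma calls of Zm00001d039933, Zm00001d028561, Zm00001d012420, Zm00001d048073 and Zm00001d033987 were lost (adjusted p = 0.069 to 0.15).

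**Figure D2:**
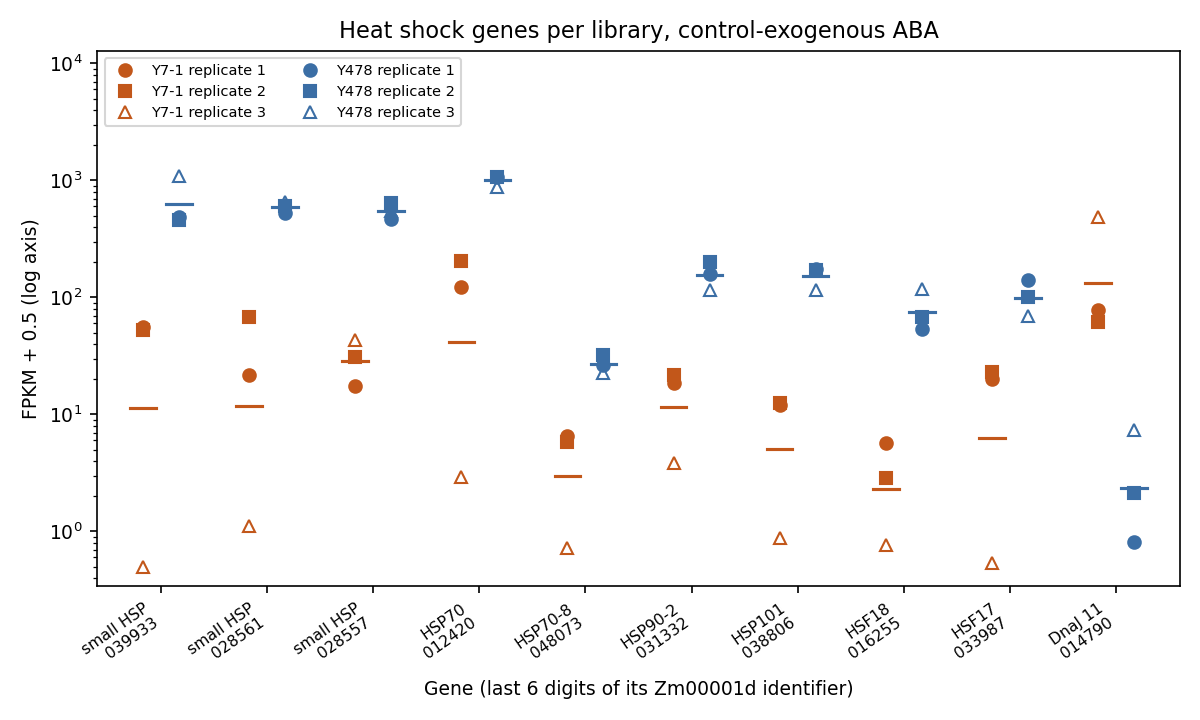
FPKM + 0.5 (log axis) of 10 heat shock genes in each library under control-exogenous ABA, with Y7-1 in orange at the left of each gene and Y478 in blue at the right. Symbols are the 3 plants of a line, open triangles are replicate 3, and bars are means on the log scale. For 9 of the genes every Y7-1 plant is below every Y478 plant, with replicate 3 of Y7-1 lowest in 8 of them, and DnaJ 11 is the reverse.

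Genes of ABA synthesis and signaling were called in both directions. Of 27 tested genes of ABA synthesis, 4 were higher and 2 lower (3 and 1 without Y7-1 replicate 3), and of 37 genes of ABA receptors and signaling 4 were higher and 3 lower (3 and 3 without it). The called shares were 22.2% and 18.9%, beside 14.9% of all tested genes. The signaling list was matched by annotation and also holds regulatory subunits of SNF1-related kinases, which are not in the core pathway described above. Subunits annotated beta-1 and gamma-1 were among its higher genes, both with their highest value in Y7-1 replicate 3. Molybdenum cofactor sulfurase Zm00001d036635, an enzyme that activates the aldehyde oxidase of the last step of ABA synthesis, had 2.37, 2.39 and 2.3 FPKM in Y7-1, against 0.0988, 0.127 and 0.772 FPKM in Y478. The 3 Y7-1 plants were almost equal and all above Y478 (log2 fold change 1.87 ± 0.36 (SE), limma adjusted p = 0.0016), as they were under control (log2 fold change 1.62). Viviparous14, Zm00001d033222, which cleaves a carotenoid to the precursor of ABA, had 1.88, 0.492 and 1.42 FPKM in Y7-1, against 2.13, 2.3 and 11.9 FPKM in Y478, with no overlap (log2 fold change -1.45 ± 0.51 (SE), limma adjusted p = 0.048, and -1.55 with adjusted p = 0.069 without Y7-1 replicate 3). Its difference rested in large part on Y478 replicate 3, without which the log2 fold change was -0.72 and the call was lost, as it was without Y7-1 replicate 2. The call was also lost in limma-voom (adjusted p = 0.18), in the fit of these libraries alone (0.24), with no filter on low values (0.067), with a pseudocount of 1 (0.065) and, at the threshold itself, with the replicate number as a block (0.05).

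Both directions were seen among receptors with the same annotation, PYL9. Zm00001d016105 had 38.2, 42.8 and 27 FPKM in Y7-1, against 144, 126 and 118 FPKM in Y478. The lines did not overlap (log2 fold change -1.85 ± 0.37 (SE), limma adjusted p = 0.0019), and the gene was also lower under control (log2 fold change -1.60). Zm00001d010445 had 5.95, 9.87 and 61.4 FPKM in Y7-1, against 2.81, 3.43 and 3.81 FPKM in Y478. Y7-1 was above Y478 in every plant, with replicate 3 far above the rest (log2 fold change 2.07 ± 0.54 (SE), limma adjusted p = 0.011, and 1.09 without Y7-1 replicate 3), with its call lost in the fit of these libraries alone (adjusted p = 0.18). ABSCISIC ACID-INSENSITIVE 5, Zm00001d042779, the bZIP factor at the end of the pathway, had 0.366, 0.126 and 0 FPKM in Y7-1, against 3.62, 1.66 and 3.56 FPKM in Y478. It was close to 0 in every Y7-1 plant and read in every Y478 plant (log2 fold change -2.35 ± 0.39 (SE), limma adjusted p = 0.00055).

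Of 87 tested protein phosphatases of type 2C, 10 were lower and 1 was higher (8 and 1 without Y7-1 replicate 3). Called were 12.6%, beside 14.9% of all tested genes, and lower 11.5% beside 8.53%. PP2C 37, Zm00001d028574, which carries the annotation of an Arabidopsis phosphatase that ABA induces, had 3.49, 0.802 and 0.7 FPKM in Y7-1, against 7.32, 17 and 41.1 FPKM in Y478. The highest Y7-1 plant was below the lowest Y478 plant (log2 fold change -3.28 ± 0.57 (SE), limma adjusted p = 0.00073), with its call lost in the fit of these libraries alone (adjusted p = 0.051). PP2C 73, Zm00001d037949, had 16.5, 18.2 and 14.9 FPKM in Y7-1, against 59.2, 53 and 58.6 FPKM in Y478. The plants of each line lay close together and far from the other line (log2 fold change -1.76 ± 0.32 (SE), limma adjusted p = 0.0011), and under control the log2 fold change was -1.90.

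Protective proteins gave 12 lower and 1 higher of 61 tested (8 and 1 without Y7-1 replicate 3), a lower share of 19.7% beside 8.53% of all tested genes. Under control 3 of the 12 were also lower, beside 43.1% of all 3562 DEGs called the same way there. Dehydrin COR410, Zm00001d017547, one of the proteins that shield membranes and enzymes in drying cells, had 2.82, 13.2 and 4.83 FPKM in Y7-1, against 61.5, 145 and 67 FPKM in Y478. Y7-1 was lower in every plant (log2 fold change -3.77 ± 0.73 (SE), limma adjusted p = 0.0017). Lea5, Zm00001d040659, had 53.6, 62.4 and 7.14 FPKM in Y7-1, against 321, 229 and 358 FPKM in Y478, with replicate 3 of Y7-1 lowest (log2 fold change -3.33 ± 0.59 (SE), limma adjusted p = 0.0008, and -2.35 without Y7-1 replicate 3) and a call lost in the fit of these libraries alone (adjusted p = 0.064). Dehydrin3, Zm00001d051420, had 20.2, 5.75 and 3.47 FPKM in Y7-1, against 16.6, 36.7 and 67.9 FPKM in Y478. The lines overlapped through Y7-1 replicate 1 (log2 fold change -2.14 ± 0.75 (SE), limma adjusted p = 0.048, and -1.63 with adjusted p = 0.18 without Y7-1 replicate 3), and leaving out Y478 replicate 2, Y478 replicate 3 or Y7-1 replicate 2 also ended its call. So did limma-voom (adjusted p = 0.058), the fit of these libraries alone (0.14), no filter on low values (0.069), quantile normalization (0.068), a pseudocount of 1 (0.054) and the replicate number as a block (0.052). The 14-3-3 proteins, which bind phosphorylated enzymes and transcription factors, gave 2 higher and 1 lower of 17 tested (17.6% called, beside 14.9% of all tested genes), and 3 and 2 without Y7-1 replicate 3. GF14 omega Zm00001d015779 had 4.42, 3.5 and 2.81 FPKM in Y7-1, against 0, 0 and 0 FPKM in Y478, which is at least 41.5-fold higher in Y7-1 against a floor of 3 reads per library (limma adjusted p = 0.00022). The 14-3-3-like protein Zm00001d007446 had 61.8, 42 and 33.3 FPKM in Y7-1, against 128, 127 and 193 FPKM in Y478, lower in every Y7-1 plant (log2 fold change -1.72 ± 0.26 (SE), limma adjusted p = 0.00026).

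Gibberellin (GA), which promotes growth and is often set against ABA, was represented by 39 tested genes, of which 5 were lower and 2 higher (17.9% called, beside 14.9% of all tested genes), and 4 and 2 without Y7-1 replicate 3. Among its genes was Zm00001d050837, annotated as GA receptor GID1L2, with 12.7, 12.8 and 6.25 FPKM in Y7-1, against 215, 154 and 372 FPKM in Y478. The Y7-1 plants lay far below all Y478 plants (log2 fold change -4.45 ± 0.53 (SE), limma adjusted p = 4.8e-05). Another gene of this annotation, Zm00001d016895, had 6.55, 6.17 and 10.1 FPKM in Y7-1, against 0.995, 0.373 and 1.24 FPKM in Y478, higher in every Y7-1 plant (log2 fold change 2.59 ± 0.54 (SE), limma adjusted p = 0.0025). Both kept their direction under control, at -4.08 and 3.14 log2 units. Gibberellin 20-oxidase5, Zm00001d012212, an enzyme of GA synthesis, had 6.58, 3.64 and 13.1 FPKM in Y7-1, against 39, 25.9 and 24.8 FPKM in Y478. Y7-1 was lower without overlap (log2 fold change -2.02 ± 0.55 (SE), limma adjusted p = 0.014), and the call was lost without Y478 replicate 1 (adjusted p = 0.059), without Y7-1 replicate 2 (adjusted p = 0.069) or in the fit of these libraries alone.

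Jasmonate genes, which act in wounding and defence, gave 3 higher and 2 lower of 60 tested, 8.33% called beside 14.9% of all tested genes, and 4 and 4 without Y7-1 replicate 3. Lipoxygenase10, Zm00001d053675, one of the enzymes that oxidise fatty acids in leaves, had 4129.7, 3668 and 4100.5 FPKM in Y7-1, against 1097, 1229 and 857 FPKM in Y478. It was abundant in both lines and higher in every Y7-1 plant (log2 fold change 1.92 ± 0.53 (SE), limma adjusted p = 0.015), though the call was lost without Y478 replicate 3 (adjusted p = 0.056) and in the fit of these libraries alone (adjusted p = 0.054). Allene oxide synthesis2, Zm00001d028282, for the next step of the pathway, had 24, 42.1 and 93.8 FPKM in Y7-1, against 3.79, 1.74 and 2.27 FPKM in Y478, higher in all Y7-1 plants (log2 fold change 3.95 ± 0.98 (SE), limma adjusted p = 0.0077), with the call lost in limma-voom (adjusted p = 0.057). ZIM-transcription factor 4, Zm00001d048263, of the family of jasmonate repressors, had 1.11, 4.13 and 4.1 FPKM in Y7-1, against 26, 13 and 49.2 FPKM in Y478. It was lower in every Y7-1 plant (log2 fold change -3.01 ± 0.62 (SE), limma adjusted p = 0.0025), while its log2 fold change was -0.40 under control.

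The 4 transcription factor families with the most genes called lower each had fewer called higher. AP2-EREBP factors, a family with many stress regulators, gave 19 lower and 1 higher of 113 tested, WRKY factors 18 lower and 6 higher of 93, bZIP factors 19 lower and 4 higher of 103, and MYB and MYB-related factors 17 lower and 3 higher of 172. Without Y7-1 replicate 3 these were 16 lower and 0 higher, 14 and 4, 10 and 4, and 7 and 4. The share of lower genes was thus 16.8%, 19.4%, 18.4% and 9.88% beside 8.53% of all tested genes, and without Y7-1 replicate 3 14.2%, 15.1%, 9.71% and 4.07% beside 7.39%, so that the MYB share lay below that of all genes. AP2-EREBP-transcription factor 83, Zm00001d012585, had 4.85, 4.02 and 1.21 FPKM in Y7-1, against 43, 43.3 and 100.2 FPKM in Y478, with no overlap (log2 fold change -4.06 ± 0.52 (SE), limma adjusted p = 7.6e-05). MYB-related-transcription factor 17, Zm00001d044409, had 7.59, 9.28 and 6.29 FPKM in Y7-1, against 235, 148 and 199.9 FPKM in Y478. The lowest Y478 plant was far above every Y7-1 plant (log2 fold change -4.56 ± 0.62 (SE), limma adjusted p = 0.00013).

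Of the bZIP factors, bZIP-transcription factor 76, Zm00001d036736, had 2.51, 2.01 and 0.772 FPKM in Y7-1, against 19.3, 12.6 and 15.5 FPKM in Y478, lower in each Y7-1 plant (log2 fold change -2.92 ± 0.34 (SE), limma adjusted p = 4.5e-05). In contrast bZIP-transcription factor 111, Zm00001d030995, had 5.74, 19.4 and 112 FPKM in Y7-1, against 2.94, 1.66 and 2.27 FPKM in Y478. Every Y7-1 plant was higher, most of all replicate 3 (log2 fold change 3.13 ± 0.61 (SE), limma adjusted p = 0.0016, and 2.02 without Y7-1 replicate 3), with its call lost in the fit of these libraries alone (adjusted p = 0.12). Among WRKY factors, many of which act in defence and senescence, WRKY-transcription factor 75, Zm00001d029564, had 27.6, 26.3 and 12 FPKM in Y7-1, against 2.2, 1.18 and 3.36 FPKM in Y478. It was higher in Y7-1 without overlap (log2 fold change 3.02 ± 0.58 (SE), limma adjusted p = 0.0014) and also under control (log2 fold change 3.12). The bHLH factor Zm00001d016873 (bHLH-transcription factor 152) had 1.05, 0.361 and 3.07 FPKM in Y7-1, against 35.5, 20.4 and 34.6 FPKM in Y478, lower in every Y7-1 plant (log2 fold change -4.15 ± 0.53 (SE), limma adjusted p = 7.6e-05). NAC-transcription factor 9, Zm00001d011969, from a family that acts in stress and senescence, had 13.8, 13.8 and 14.2 FPKM in Y7-1, against 57.6, 36.2 and 54.5 FPKM in Y478. Its 3 Y7-1 plants were nearly equal and below all Y478 plants (log2 fold change -1.76 ± 0.22 (SE), limma adjusted p = 7.6e-05). Of 60 genes that the study lists for ABA-dependent and -independent signaling, 20 were lower and 6 higher (17 and 7 without Y7-1 replicate 3). These shares were 33.3% lower and 10% higher, beside 8.53% and 6.33% of all tested genes. That list was chosen on the control plants of the same lines, for a difference between Y7-1 and Y478, so it is no independent evidence of direction.

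Aquaporins, the channels that let water through the plasma membrane (PIP) and the vacuole membrane (TIP), were the list with the lowest median. Of 27 tested, 11 were lower and 0 higher in Y7-1 (8 and 0 without replicate 3), a share of 40.7% beside 8.53% of all tested genes called lower. Their median log2 fold change was -1.17, and -1.09 without Y7-1 replicate 3. All 11 called genes had no overlap between the lines, as had 1942 of all 2045 lower DEGs. They lay at -1.44 to -3.67 log2 units. Under control 6 of the 11 were also lower, beside 43.1% of all 3562 DEGs called the same way there. Plasma membrane intrinsic protein1, Zm00001d002690, an aquaporin of the PIP1 type, had 337, 264 and 137 FPKM in Y7-1, against 1393, 1249 and 1983 FPKM in Y478. Every Y7-1 plant lay below every Y478 plant (log2 fold change -2.71 ± 0.40 (SE), limma adjusted p = 0.00024), and under control the range was 204 to 326 FPKM in Y7-1 and 1238 to 1312 in Y478. The NOD26-like channel Zm00001d018037, of a subfamily that also carries small solutes, had 16.6, 17.4 and 41.1 FPKM in Y7-1, against 328, 212 and 374 FPKM in Y478, with Y7-1 replicate 3 the highest of its line and still below Y478 (log2 fold change -3.67 ± 0.46 (SE), limma adjusted p = 7.3e-05). PIP2-6, Zm00001d019565, had 30.7, 17.7 and 0.29 FPKM in Y7-1, against 54.9, 56 and 81.9 FPKM in Y478. The lines did not overlap (log2 fold change -3.06 ± 0.89 (SE), limma adjusted p = 0.019, and -1.42 with adjusted p = 0.072 without Y7-1 replicate 3), and the call was also lost without Y478 replicate 3 (adjusted p = 0.066) and in the fit of these libraries alone (adjusted p = 0.21). Guard cell and epidermis markers were lower in sum in Y7-1, as given above. Of their 17 tested members, 4 were called lower and 1 higher (3 and 1 without Y7-1 replicate 3). The lower share was 23.5% beside 8.53% of all tested genes. By sign, 8 members had a log2 fold change above 0 and 9 below, with a median of -0.04. The part of these cells in the aquaporin values was not tested.

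The proton pump of the plasma membrane sets up the gradient that drives transport into cells. Membrane H(+)-ATPase1, Zm00001d007775 (chromosome 2, 239388885 to 239393934), had 0, 0 and 0 FPKM in Y7-1, against 60.3, 34 and 43.8 FPKM in Y478. It was listed at 0 in every Y7-1 plant, which makes it at least 529.7-fold lower against a floor of 3 reads per library (limma adjusted p = 6e-05). The 23 genes with a proton pump annotation, a group put together after the values were seen, summed to 177, 221 and 234 FPKM in Y7-1, against 270.3, 194 and 239.5 FPKM in Y478. The lines overlapped in this sum, and no other of the 10 tested pump genes was called. The neighbouring gene model Zm00001d007776, a disease resistance protein of the RGA2 type, had 0.455, 0.427 and 0.556 FPKM in Y7-1, against 16.3, 16.6 and 14.4 FPKM in Y478, and was lower in Y7-1 as well (log2 fold change -4.05 ± 0.54 (SE), limma adjusted p = 9.8e-05).

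**Figure D3:**
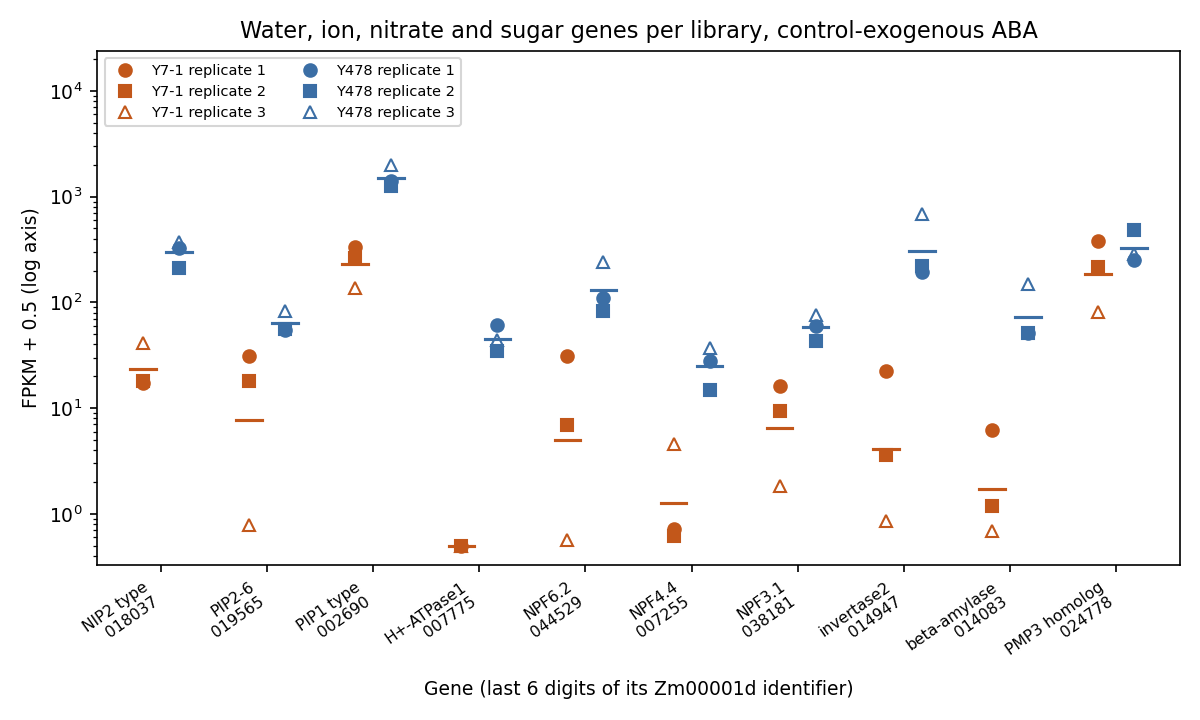
FPKM + 0.5 (log axis) of 9 genes of water, ion, nitrate and sugar handling and of the PMP3 homolog in each library under control-exogenous ABA. Y7-1 (orange) stands left of Y478 (blue) for each gene, symbols are plants, open triangles are replicate 3 and bars are means on the log scale. The lines overlap for the PMP3 homolog, and for each of the other 9 genes every Y7-1 plant is below every Y478 plant.

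Nitrogen genes were called in both directions, 11 lower and 9 higher of 72 tested (8 and 7 without Y7-1 replicate 3), 27.8% called beside 14.9% of all tested genes. Members of the NRT1/PTR family (NPF), carriers of nitrate, peptides and some hormones, had the largest fold changes among them. NPF6.2, Zm00001d044529, had 30.4, 6.41 and 0.0651 FPKM in Y7-1, against 109, 82.9 and 239 FPKM in Y478. Y7-1 was lower in every plant and close to 0 in replicate 3 (log2 fold change -4.71 ± 0.96 (SE), limma adjusted p = 0.0022, and -3.15 without Y7-1 replicate 3). NPF4.4, Zm00001d007255, had 0.211, 0.121 and 4.12 FPKM in Y7-1, against 27.6, 14.3 and 36.9 FPKM in Y478, where replicate 3 was instead the highest of its line (log2 fold change -4.30 ± 0.90 (SE), limma adjusted p = 0.0027, and -5.23 without Y7-1 replicate 3). NPF3.1, Zm00001d038181, had 15.5, 8.85 and 1.33 FPKM in Y7-1, against 59.9, 42.2 and 75 FPKM in Y478, lower in all Y7-1 plants (log2 fold change -3.16 ± 0.62 (SE), limma adjusted p = 0.0018, and -2.24 without Y7-1 replicate 3). The limma calls of NPF6.2 and NPF3.1 were lost in the fit of these libraries alone (adjusted p = 0.068 to 0.1).

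Genes of sugar, sucrose and trehalose were called higher 19 times and lower 12 times among 131 tested, and 11 times each without Y7-1 replicate 3. Called were 23.7%, beside 14.9% of all tested genes. Invertase2, Zm00001d014947, which splits sucrose in the vacuole or wall, had 21.7, 3.09 and 0.355 FPKM in Y7-1, against 192, 221 and 690.3 FPKM in Y478. Each Y7-1 plant was below each Y478 plant (log2 fold change -6.24 ± 1.20 (SE), limma adjusted p = 0.0015, and -5.11 without Y7-1 replicate 3), although under control the lines were at 7.24 to 144 FPKM in Y7-1 and 36.1 to 209 in Y478. Beta-amylase Zm00001d014083, which releases maltose from starch, had 5.75, 0.683 and 0.187 FPKM in Y7-1, against 50.4, 50.6 and 148 FPKM in Y478, without overlap (log2 fold change -5.41 ± 0.67 (SE), limma adjusted p = 6.6e-05, and -4.74 without Y7-1 replicate 3). Granule-bound starch synthase 1, Zm00001d027242, had 0.0835, 0.0575 and 0 FPKM in Y7-1, against 13, 12.4 and 11.2 FPKM in Y478. It was close to 0 in Y7-1 alone (log2 fold change -4.54 ± 0.63 (SE), limma adjusted p = 0.00016), and likewise under control (log2 fold change -4.53). Sucrose nonfermenting 4-like protein Zm00001d011253, a subunit of a kinase that senses sugar and energy, had 24.6, 58.4 and 60.2 FPKM in Y7-1, against 0, 0 and 0 FPKM in Y478, at least 989-fold higher in Y7-1 against the floor of 3 reads (limma adjusted p = 0.00021), with the call lost in limma-voom (adjusted p = 0.11).

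Few light-harvesting and photosystem genes were called. Of 86 genes of light harvesting and the photosystems, 2 were higher and 2 lower, 4.65% called beside 14.9% of all tested genes, with a median log2 fold change of -0.01 and of -0.43 without Y7-1 replicate 3, where 3 were higher and 3 lower. The 30 antenna genes summed to 27794, 30247 and 87971 FPKM in Y7-1, against 37236, 24255 and 75591 FPKM in Y478, so that replicate 3 was highest in both lines. Single gene copies did differ. The chlorophyll a-b binding protein 6 gene Zm00001d024372 had 13.5, 13.7 and 30.1 FPKM in Y7-1, against 0, 0 and 0 FPKM in Y478, at least 72.1-fold higher in Y7-1 (limma adjusted p = 0.0018), with the call lost in limma-voom (adjusted p = 0.061). NADP-dependent malic enzyme 4, Zm00001d003090, had 0, 0 and 0 FPKM in Y7-1, against 21.1, 14.3 and 8.17 FPKM in Y478, at least 114-fold lower in Y7-1 (limma adjusted p = 0.0012).

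Of 25 tested C4 enzymes of mesophyll cells, 4 were lower and 1 higher (20% called), with 13 log2 fold changes above 0 and 12 below. Of 16 tested bundle sheath and Rubisco genes, 2 were lower and 0 higher (12.5% called), beside 14.9% of all tested genes. Without Y7-1 replicate 3 the counts were 3 and 1, and 2 and 0. Carbonic anhydrase3, Zm00001d044096, which feeds bicarbonate into the C4 cycle, had 82.5, 76.6 and 76.1 FPKM in Y7-1, against 229, 254 and 383 FPKM in Y478. It was lower in every Y7-1 plant (log2 fold change -1.84 ± 0.26 (SE), limma adjusted p = 0.0002). Rubisco activase3, Zm00001d048592, which clears inhibitors from Rubisco, had 77.6, 124 and 7.2 FPKM in Y7-1, against 373, 238 and 541 FPKM in Y478, lower without overlap (log2 fold change -3.11 ± 0.72 (SE), limma adjusted p = 0.0051, and -1.89 without Y7-1 replicate 3), with its call lost in the fit of these libraries alone (adjusted p = 0.13). Genes of chlorophyll synthesis and breakdown, listed after the values were seen, gave 5 higher and 3 lower of 27 tested (29.6% called, beside 14.9% of all tested genes), and 5 and 2 without Y7-1 replicate 3. Chlorophyllide a oxygenase Zm00001d004531, which makes chlorophyll b, had 0, 0 and 0 FPKM in Y7-1, against 47.5, 56.8 and 70.6 FPKM in Y478, at least 253-fold lower in Y7-1 (limma adjusted p = 0.00051). Chlorophyllase-1, Zm00001d031934, an enzyme that cuts the tail off chlorophyll, had 27.1, 26 and 228 FPKM in Y7-1, against 1.3, 0.465 and 0.698 FPKM in Y478. All Y7-1 plants were higher (log2 fold change 5.43 ± 1.12 (SE), limma adjusted p = 0.0024, and 4.41 without Y7-1 replicate 3), though not called in limma-voom (adjusted p = 0.071). Protochlorophyllide reductase Zm00001d032576, of the light-driven step of synthesis, had 21.3, 30.3 and 104 FPKM in Y7-1, against 3.09, 2.24 and 6.2 FPKM in Y478, higher in every Y7-1 plant (log2 fold change 3.35 ± 0.58 (SE), limma adjusted p = 0.00067, and 2.68 without Y7-1 replicate 3). Senescence enhanced2a, Zm00001d011174, had 14.7, 18.6 and 16.8 FPKM in Y7-1, against 1.6, 1.51 and 2.03 FPKM in Y478, with Y7-1 plants close together and above Y478 (log2 fold change 2.96 ± 0.50 (SE), limma adjusted p = 0.00062).

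Genes of defence metabolites were called higher more often than lower. Of 33 tested genes of benzoxazinoids and terpenes, the main defence chemicals of maize leaves, 9 were higher and 1 was lower (7 and 1 without replicate 3), a higher share of 27.3% beside 6.33% of all tested genes, with a median log2 fold change of 0.47. Under control 1 of the 9 was also called higher, beside 43.1% of all 3562 DEGs called the same way there. Sesquiterpene cyclase1, Zm00001d045054, had 99.1, 109 and 30 FPKM in Y7-1, against 4.18, 2.15 and 2.79 FPKM in Y478. Every Y7-1 plant was higher and replicate 3 was the lowest of them (log2 fold change 4.33 ± 1.19 (SE), limma adjusted p = 0.015, and 4.92 without Y7-1 replicate 3), with the call lost in limma-voom (adjusted p = 0.087). Terpene synthase2, Zm00001d015053, had 141, 146 and 114 FPKM in Y7-1, against 14.1, 24 and 2.43 FPKM in Y478, without overlap (log2 fold change 3.72 ± 0.81 (SE), limma adjusted p = 0.0035). Benzoxazinone synthesis12, Zm00001d029353, had 3.83, 22.5 and 2.71 FPKM in Y7-1, against 0, 0 and 0.0482 FPKM in Y478. It was read in Y7-1 and almost not in Y478 (log2 fold change 3.73 ± 1.04 (SE), limma adjusted p = 0.016), and the call was lost without Y7-1 replicate 2 (adjusted p = 0.08).

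Phenylpropanoid and flavonoid genes gave 11 higher and 12 lower of 117 tested, 19.7% called beside 14.9% of all tested genes, and 9 and 9 without Y7-1 replicate 3. Leucoanthocyanidin reductase Zm00001d026370, for a step towards tannins, had 45.2, 22.3 and 16.1 FPKM in Y7-1, against 0, 0 and 0 FPKM in Y478, at least 230.4-fold higher in Y7-1 (limma adjusted p = 7.3e-05). Dihydroflavonol-4-reductase Zm00001d046706, on the way to anthocyanins, had 9.5, 6.62 and 12.5 FPKM in Y7-1, against 0, 0 and 0 FPKM in Y478, at least 25.4-fold higher (limma adjusted p = 0.0073). Isoflavone reductase-like1, Zm00001d040173, had 90, 98.1 and 25 FPKM in Y7-1, against 3.68, 7.46 and 1.96 FPKM in Y478. It was higher in each Y7-1 plant (log2 fold change 3.81 ± 0.92 (SE), limma adjusted p = 0.0068, and 4.44 without Y7-1 replicate 3). Cytochrome P450 81D gene Zm00001d029183 had 58.4, 123 and 31.8 FPKM in Y7-1, against 0.0336, 0.0864 and 0.432 FPKM in Y478, close to 0 in Y478 alone (log2 fold change 6.54 ± 1.01 (SE), limma adjusted p = 0.00032), with the call lost in limma-voom (adjusted p = 0.064). Salicylate/benzoate carboxyl methyltransferase Zm00001d044762, which makes volatile methyl esters, had 49.3, 101 and 72.3 FPKM in Y7-1, against 0.711, 0.0321 and 0.526 FPKM in Y478. All Y7-1 plants were higher (log2 fold change 6.36 ± 1.35 (SE), limma adjusted p = 0.0029), and the call was again lost in limma-voom (adjusted p = 0.065).

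Antioxidant enzymes, which remove hydrogen peroxide and superoxide, gave 9 higher and 12 lower of 142 tested, which is 14.8% beside 14.9% of all genes, and 6 and 11 without Y7-1 replicate 3. L-ascorbate peroxidase 6, Zm00001d031494, had 19.2, 44 and 114 FPKM in Y7-1, against 3.39, 2.38 and 3.2 FPKM in Y478, higher in all Y7-1 plants (log2 fold change 3.75 ± 0.49 (SE), limma adjusted p = 9.7e-05, and 3.10 without Y7-1 replicate 3). Superoxide dismutase9, Zm00001d047479, had 8.29, 7.84 and 0.966 FPKM in Y7-1, against 37.6, 41.1 and 43.5 FPKM in Y478. Y7-1 was lower in every plant, with replicate 3 lowest (log2 fold change -3.11 ± 0.64 (SE), limma adjusted p = 0.0023, and -2.26 without Y7-1 replicate 3), with its call lost in the fit of these libraries alone (adjusted p = 0.051). The auxin-repressed protein Zm00001d005804, from a family of growth-arrest markers, had 50, 82.8 and 246 FPKM in Y7-1, against 0.868, 0.298 and 2.44 FPKM in Y478. Replicate 3 was the highest and the lines did not overlap (log2 fold change 6.10 ± 0.85 (SE), limma adjusted p = 0.00016, and 5.46 without Y7-1 replicate 3). F-box protein PP2-B10, Zm00001d053172, from the family that picks proteins for breakdown, had 65.7, 298 and 169.7 FPKM in Y7-1, against 8.05, 9.82 and 9.84 FPKM in Y478, higher in Y7-1 without overlap (log2 fold change 3.95 ± 0.76 (SE), limma adjusted p = 0.0015), and F-box and related genes as a list gave 6 higher and 19 lower of 212 tested (5 and 15 without Y7-1 replicate 3). Their lower share of 8.96% was close to the 8.53% of all tested genes, and their higher share was 2.83% beside 6.33%.

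Cytosolic ribosomal proteins, which build the ribosomes outside plastids, gave 32 higher and 9 lower of 268 tested (25 and 10 without Y7-1 replicate 3), 11.9% higher and 3.36% lower beside 6.33% and 8.53% of all tested genes, with a median log2 fold change of 0.36. The extremes came from copies of 40S ribosomal protein S4-3. Zm00001d045627 had 15.4, 22.5 and 78.4 FPKM in Y7-1, against 0, 0.0502 and 0 FPKM in Y478. Zm00001d031743 had 20.5, 24.5 and 43.9 FPKM in Y7-1, against 0, 0 and 0 FPKM in Y478. Zm00001d016333 had 15.8, 6.68 and 85.6 FPKM in Y7-1, against 0, 0 and 0 FPKM in Y478. Each was read in all Y7-1 plants and at or near 0 in Y478, with log2 fold changes of 5.89, 5.84 and 5.43 (limma adjusted p = 0.0018, 0.0017 and 0.0052), or 5.21, 5.52 and 4.44 without Y7-1 replicate 3, and calls that were lost in limma-voom (adjusted p = 0.056 to 0.15). Another copy, Zm00001d011152, had 11.4, 31.1 and 46.1 FPKM in Y7-1, against 0.34, 0.413 and 0.398 FPKM in Y478, higher in every Y7-1 plant (log2 fold change 4.88 ± 0.72 (SE), limma adjusted p = 0.00024). Zm00001d019693, taken up after its values were seen, was called lower, with 0.282, 0 and 70 FPKM in Y7-1, against 64.4, 43.5 and 62.3 FPKM in Y478. It was near 0 in Y7-1 replicates 1 and 2, while replicate 3 was above all Y478 plants (log2 fold change -4.22 ± 1.28 (SE), limma adjusted p = 0.024, and -6.49 without Y7-1 replicate 3), and the call was lost without any 1 of Y7-1 replicate 1, Y7-1 replicate 2, Y478 replicate 1 or Y478 replicate 3, and in the fit of these libraries alone. The copies share 1 annotation, and how reads common to such genes were counted is not given in the sources used here. Their single values are therefore uncertain, and how alike the copies are in sequence was not tested. Their 57 genes together, a group formed after the values were seen, summed to 183, 217 and 483 FPKM in Y7-1, against 203.5, 153 and 206 FPKM in Y478, with overlap. Small nucleolar RNA genes, short RNAs that guide changes in ribosomal RNA and were also grouped after the values were seen, gave 21 higher and 4 lower of 192 tested (18 and 7 without Y7-1 replicate 3), 13.0% called beside 14.9% of all tested genes.

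A set of genes was read in a single line. With at least 1 FPKM in all 3 plants of a line and under 0.1 FPKM in all 3 of the other, 188 genes were read in Y7-1 alone and 102 in Y478 alone. In the other Y7-1 groups, which did not enter this choice, 135 to 164 of the 188 were at 1 FPKM or more in each library, except 3 in the library labelled Y7-1 moderate drought replicate 3, and 0 to 2 in the Y478 libraries. Of the 102 genes of Y478, 83 to 94 were at 1 FPKM or more in each Y478 library of the other groups, 2 to 12 in the Y7-1 libraries, and 91 in the library labelled Y7-1 moderate drought replicate 3. F1N21.17, Zm00001d025423, of the Y7-1 set, had 93.1, 119 and 149 FPKM in Y7-1, against 0, 0 and 0 FPKM in Y478, at least 179-fold higher (limma adjusted p = 0.0025). Uridine kinase-like protein 5, Zm00001d045018, which salvages uridine for RNA, had 52.6, 80.5 and 46.1 FPKM in Y7-1, against 0, 0 and 0 FPKM in Y478, at least 238-fold higher (limma adjusted p = 0.0028). Both calls were lost in limma-voom (adjusted p = 0.064 to 0.16). Neither gene was read at this level in every other Y7-1 library. Under control F1N21.17 had 117, 0 and 158 FPKM in Y7-1, and the uridine kinase gene 57.7, 0.139 and 101. In the libraries labelled Y7-1 moderate drought F1N21.17 had 59, 0 and 0 FPKM, and the uridine kinase gene 34.4, 42.9 and 0. The EF hand family protein Zm00001d037173, a presumed calcium binder, fell outside the set of 102 genes through Y7-1 replicate 3, with 0, 0 and 0.742 FPKM in Y7-1, against 65.4, 55.8 and 149 FPKM in Y478. It was lower in every Y7-1 plant (log2 fold change -6.92 ± 0.97 (SE), limma adjusted p = 0.00017), and the control plants gave 0 to 0.18 FPKM in Y7-1 and 55.1 to 141 in Y478.

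**Figure D4:**
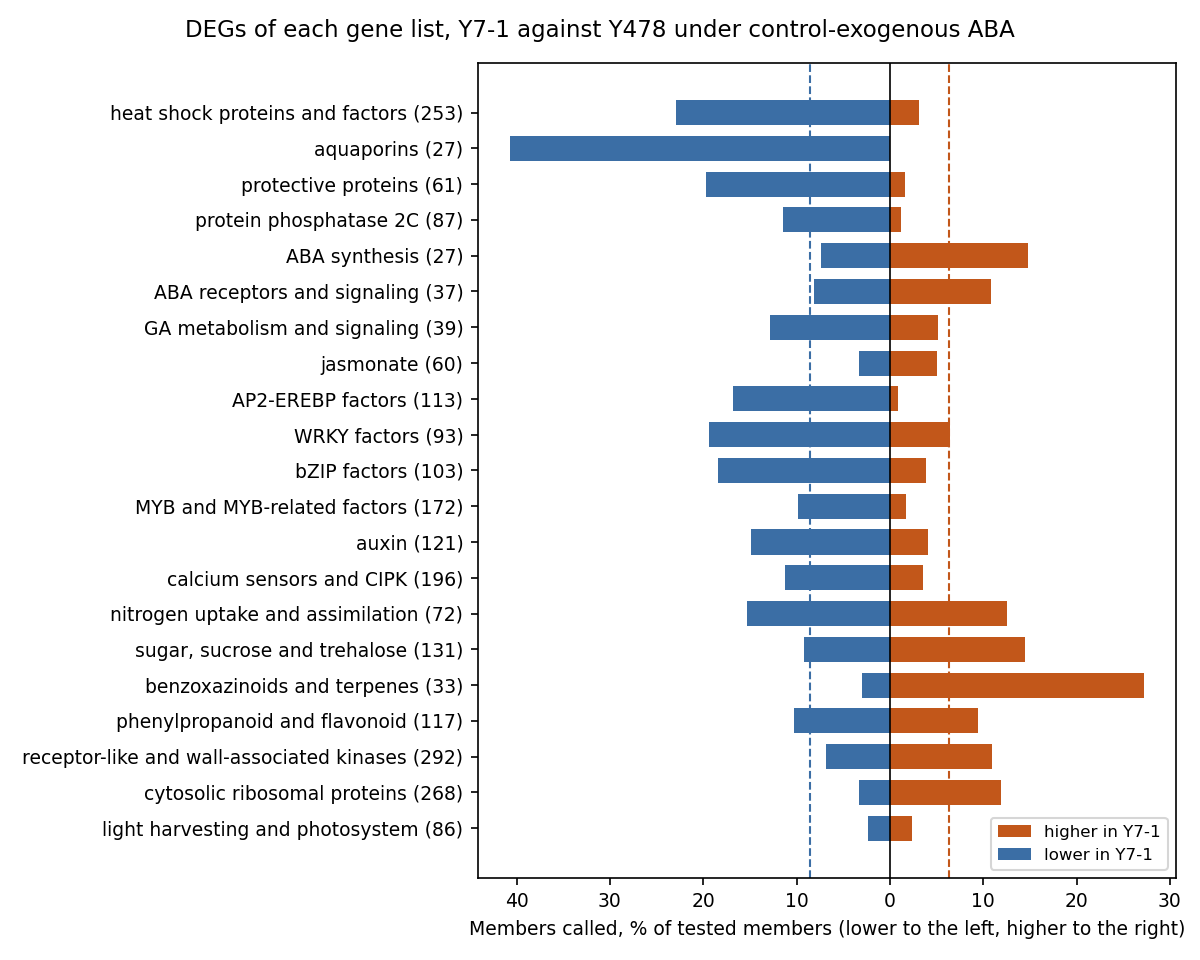
Share of the tested members of each gene list called higher (orange, to the right) or lower (blue, to the left) in Y7-1 than in Y478 under control-exogenous ABA, with the number of tested members in brackets. Dashed lines are the shares over all tested genes, 6.33% higher and 8.53% lower. Aquaporins have the longest bar of lower genes, at 40.7%, and benzoxazinoids and terpenes the longest of higher genes, at 27.3%.

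Called genes lay on all chromosomes. By chromosome, 12.7% (chromosome 9) to 18.6% (chromosome 6) of the tested genes were called. In 209 windows of 10 Mb with at least 20 tested genes, the share ran from 3.57% to 32.8% with a median of 14.3%. The window with the highest share was on chromosome 5 from 150 to 160 Mb, with 19 of 58 tested genes called, and 15 called without Y7-1 replicate 3. On chromosome 6 from 100 to 110 Mb, 32 of 109 were called (26 without Y7-1 replicate 3), and on chromosome 8 from 30 to 40 Mb 18 of 63 (7 without it). Under control the called genes of these windows on chromosomes 5, 6 and 8 were 7, 28 and 18. These were 12.1%, 25.7% and 28.6% of those tested, beside 9.12% of all tested genes. Coordinates are those of the table. It names no build, but 477 of its genes lie on contigs with B73V4 in their names, and the build in the submitters' processing notes is not one of maize.

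In moderate drought-exogenous ABA, pots dried to a moisture of 50% or less with the same spray, other plants of the same lines gave 4311 DEGs (18.0% of those tested, 7.87% higher and 10.1% lower), and 1932 genes were called in the same direction there and under control-exogenous ABA, which is 54.2% of the 3562 and 44.8% of the 4311. Under control, control-exogenous ABA and moderate drought-exogenous ABA alike, 1108 genes were called the same way (444 higher and 664 lower), and 990 of them kept the call without Y7-1 replicate 3. Under control-exogenous ABA alone 1198 were called, of which 607 kept it. The difference of the line differences, control-exogenous ABA minus moderate drought-exogenous ABA, was called for 7 genes (0.0292%), 3 higher (0.0125%) and 4 lower (0.0167%), which are given further on.

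The genes that set Y7-1 replicate 3 apart were followed into the other libraries. It lacked (under 0.1 FPKM) 217 genes that had at least 1 FPKM in both other Y7-1 plants of its group, and it had 242 genes that both of those lacked. The same rule gave 65 to 96 lost and 49 to 82 gained genes for the other Y7-1 plants, and 20 to 65 lost and 23 to 44 gained for the Y478 plants. Of the 217 genes, 64 were at 1 FPKM or more in Y7-1 control replicate 2 and 52 in Y7-1 moderate drought replicate 2, against 144 to 171 in the other Y7-1 libraries outside the group, 119 in the library labelled Y7-1 moderate drought replicate 3 and 110 to 122 in the Y478 libraries. Of the 242, 111 and 112 were read in the same pair of libraries, against 29 to 47 in those others and 55 in that library. These libraries thus shared part of the pattern, and they were also the next highest on the third principal component, at 48.8 and 36.9. Of the 3562 DEGs, 40 were among the 217 genes (18.4% of them) and 22 among the 242 (9.09%), beside 14.9% of all tested genes. Why these plants differ from the rest of their line was not tested.

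**Figure D5:**
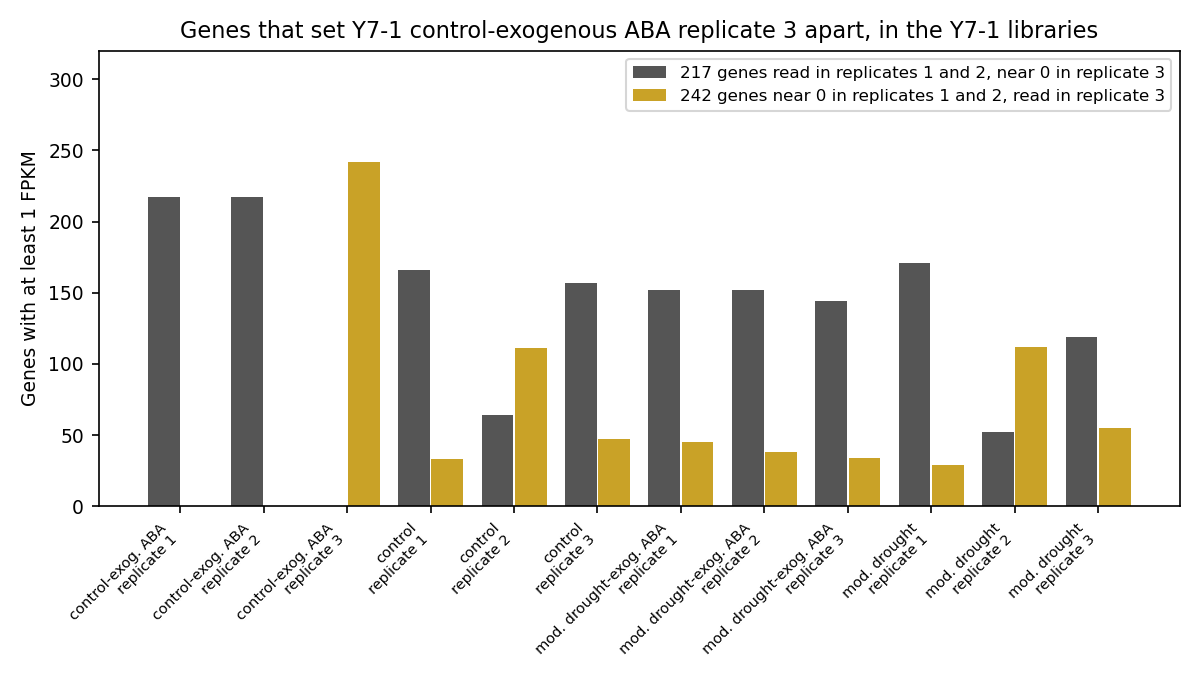
Number of genes with at least 1 FPKM in each of the 12 libraries labelled Y7-1, for 217 genes that Y7-1 control-exogenous ABA replicate 3 lacked (dark) and 242 genes that it alone of its group had (yellow). Control replicate 2 and moderate drought replicate 2 lie between this plant and the rest, with 64 and 52 of the 217 genes and 111 and 112 of the 242.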

How the data were processed

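Leaf RNA of 3 plants each of Y7-1 and Y478 under control-exogenous ABA was compared, with 18 further libraries giving the spread. The authors deposited 1 table of FPKM per gene, whose counting tool, gene model release and strand setting are not given in the sources used here. The submitters' processing notes name HISAT2 2.0.5 for alignment, and their notes on tissue, kit and build are not of maize leaf. Contig names in the table carry B73V4, and coordinates are printed as the table has them. Sequencing was by an Illumina NovaSeq platform per the study's methods. How multi-mapped reads were counted is not given.

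Values were taken as log2(FPKM + 0.5), so that fold changes of low genes are understated, and fitted with limma 3.58.1 (R 4.3.3) as 8 group means over 24 libraries with a trended variance. Benjamini-Hochberg adjustment ran over 23978 genes and tests were two-sided. Whole reads were recovered from the FPKM steps (100% of values whole within 0.05), and limma-voom on them called 3283 genes. The fit was tested on simulated data. It called 57 of 100 genes changed by 1.5 log2 units, 84 of 100 changed by 3, and 7 of 23778 unchanged genes. The mean estimates were 1.302 and 2.475, nearer to 0 than the changes put in. No outlying or mislabelled library was simulated. Named genes were the PMP3 family, the 15 higher and 15 lower DEGs with the largest change among annotated genes with no overlap and a mean of at least 1 FPKM in the higher line, up to 4 called genes per list, up to 5 in each direction for each difference of line differences, and the study's lists. The genes in the text are a selection from these made with their values seen. Members and lists were chosen with earlier results of these data known. Alternatives were another pseudocount, filter, scaling, weighting, set of libraries, a replicate block and leaving out each replicate. Reads limit precision through counting error only. The limma p-values measure the spread between plants of the same group, shared over the 8 groups and 24 libraries, and not that of the compared plants alone. Sequences were not used here.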

Additional observations from a re-analysis of the deposited data

Results flagged for a closer look

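The difference between the lines differed between control-exogenous ABA and moderate drought-exogenous ABA for 7 genes by the interaction term of limma, of which limma-voom on recovered reads called 0. Each value below is the log2 fold change of Y7-1 over Y478 in control-exogenous ABA minus that in moderate drought-exogenous ABA, with its SE and adjusted p, and no explanation was tested. Some of these genes were at 0 in every plant of a group, and such groups add no spread to the shared SE.

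Serine carboxypeptidase-like 19 (Zm00001d003530), of a family of hydrolases and acyltransferases, gave 3.65 ± 0.54 (SE, limma adjusted p = 0.014), with 5.78, 3.03 and 11.8 FPKM in Y7-1 and 0.0505, 0 and 0 FPKM in Y478 under control-exogenous ABA. In dry pots with ABA it had 0 in all 3 plants in Y7-1 and 0 in all 3 plants in Y478. Metal tolerance protein 10 (Zm00001d040002), of a family of metal ion carriers, gave 2.49 ± 0.42 (SE, limma adjusted p = 0.04), with 37.2, 36.2 and 35.8 FPKM in Y7-1 and 25.8, 16.9 and 29.1 FPKM in Y478 under control-exogenous ABA. Its values under moderate drought-exogenous ABA were 21.1, 26.2 and 19.4 FPKM in Y7-1 and 79.1, 56.1 and 120.4 FPKM in Y478. A gene with no description (Zm00001d013165) gave 2.19 ± 0.31 (SE, limma adjusted p = 0.014), with 1.01, 1.89 and 2.8 FPKM in Y7-1 and 0 in all 3 plants in Y478 under control-exogenous ABA. Under moderate drought-exogenous ABA it had 0 in all 3 plants in Y7-1 and 0 in all 3 plants in Y478. A proteasome subunit of the alpha type (Zm00001d043137), part of the complex that degrades proteins, gave -1.81 ± 0.29 (SE, limma adjusted p = 0.027), with 2.26, 4.14 and 2.45 FPKM in Y7-1 and 7.48, 6.79 and 7.33 FPKM in Y478 under control-exogenous ABA. In dry pots with ABA it had 4.91, 3.61 and 3.89 FPKM in Y7-1 and 2.1, 3.1 and 2.45 FPKM in Y478. Protein DETOXIFICATION 35 (Zm00001d033296), of a family of membrane exporters, gave -2.26 ± 0.38 (SE, limma adjusted p = 0.036), with 0.548, 0.745 and 0.698 FPKM in Y7-1 and 4.5, 3.22 and 3.84 FPKM in Y478 under control-exogenous ABA. Its values under moderate drought-exogenous ABA were 2.61, 3.24 and 2.15 FPKM in Y7-1 and 1.46, 2.88 and 1.68 FPKM in Y478. A 3-ketoacyl-CoA synthase (Zm00001d037328), of the enzymes that lengthen fatty acids, gave -2.69 ± 0.37 (SE, limma adjusted p = 0.014), with 0.0523, 0 and 0.0665 FPKM in Y7-1 and 0 in all 3 plants in Y478 under control-exogenous ABA. Under moderate drought-exogenous ABA it had 2.91, 3.79 and 2.35 FPKM in Y7-1 and 0 in all 3 plants in Y478. Cellulose synthase-like protein D3 (Zm00001d021732), of a family of wall polysaccharide synthases, gave -3.68 ± 0.57 (SE, limma adjusted p = 0.023), with 1.48, 0 and 0.0545 FPKM in Y7-1 and 14.9, 5.98 and 19 FPKM in Y478 under control-exogenous ABA. In dry pots with ABA it had 0 in all 3 plants in Y7-1 and 0.111, 0 and 0.197 FPKM in Y478.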

How the results depend on the processing

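The count of 3562 DEGs stayed within 1.5 times under the alternatives tried except the fit of only the libraries of the groups compared, which called 1883 (815 higher, 1068 lower), with fewer libraries to estimate the spread. Leaving out 1 replicate at a time gave 2643 to 3818. For control-exogenous ABA minus control, with 0 genes called, the fit of the libraries compared gave 1, array weights 184, and leaving out 1 replicate 0 to 7. Leaving out both Y7-1 replicate 3 and the library labelled Y7-1 moderate drought replicate 3, a setting chosen after the data were seen, gave 10, and leaving out that library alone gave 0. For control-exogenous ABA minus moderate drought-exogenous ABA, with 7 genes called, a pseudocount of 0.1 gave 1, no filter 15, quantile normalization 13, array weights 866, limma-voom on recovered reads 0, leaving out the library labelled Y7-1 moderate drought replicate 3 45, both libraries out 44, and leaving out 1 replicate 0 to 40. It was 0 without Y478 replicate 3 or Y7-1 moderate drought-exogenous ABA replicate 2, and 3, 40, 14, 4 and 38 without Y478 replicate 1, Y7-1 replicate 1, Y7-1 replicate 3, Y478 moderate drought-exogenous ABA replicate 1 and Y478 moderate drought-exogenous ABA replicate 2. The cause was not tested.

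In 3 genes of the PMP3 family that were not called, the sign changed. Zm00001d040544 was at -0.61 log2 units, with 0.37 by array weights, -1.16 to 0.33 on leaving out 1 replicate and 0.33 with both libraries out. Zm00001d045096 was at 0.00, with -0.10 by array weights and -0.10 to 0.10 on leaving out 1 replicate. Zm00001d028718 was at -0.39, with 0.27 by array weights. The deviations of Y7-1 and Y478 plants with the same replicate number had correlations of 0.00, 0.11 and 0.21, the last for replicate 3. Those of plants with different numbers ran from -0.19 to 0.17. Whether the same number marks paired plants was not tested. With the number as a replicate block, 3553, 0 and 6 genes were called in the 3 comparisons, and the homolog stayed at -0.80 log2 units.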
